A study of Mus musculus with 19 samples.

Results

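The genes described here encode complexes II to V of oxidative phosphorylation, and their mRNA was measured in dendrites severed from cultured mouse hippocampal neurons of 2 inbred strains. Members were chosen by symbol: genes beginning with Sdha, Sdhb, Sdhc, Sdhd or Sdhaf, with Uqcr, with Cox4 to Cox8 or with Atp5, plus Cycs, Cyc1 and Atpif1. This gave 53 of 18193 genes on the array: 8 of complex II, 10 of complex III with cytochrome c, 17 of complex IV and 18 of complex V. They were covered by 105 probe sets, the groups of short probes that the array uses for 1 transcript, and where a gene had several the median was taken.

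The study set dendrites of mouse strains beside those of the rat, and only the mouse arrays were analysed here. The Balb/c group held 5 arrays, with 2 from 100 pooled dendrites, 1 from 200 and 2 from 400. The C57BL/6 group held 14, with 4 from 100, 5 from 200 and 5 from 400. In both strains (from Charles River, with no treatment described) the hippocampal neurons came from E18 embryos and grew dispersed in culture for 14 days, then dendrites were cut off with a glass pipette and the RNA of a pool was amplified in repeated rounds. Axons could not be told from dendrites by shape, so a pool may hold axonal RNA, and dendrites of many cells share a pool. The study also warns that RNA from cell bodies may be present in its dendrite samples. An array's name gives its strain, its pool size and a replicate number, and the 5 Balb/c values of a gene always run in the order 100-1, 100-2, 200-1, 400-1 and 400-2. All levels are log2 expression values as deposited, and ± after a difference is the standard error of the fit. Because pools hold many dendrites, fewer dendrites carrying a transcript and less of it per dendrite cannot be told apart.

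Oxidative phosphorylation is carried out by protein complexes of the inner mitochondrial membrane. Complex II, succinate dehydrogenase, passes electrons from succinate to ubiquinone. Complex III moves them on to cytochrome c, a small soluble carrier, and complex IV, cytochrome c oxidase, hands them to oxygen. The proton gradient built on the way drives complex V, the ATP synthase. Mitochondria travel along dendrites and supply much of the ATP that synapses use. All members here are nuclear genes, whose mRNAs are translated outside the mitochondrion, and the few subunits that mitochondrial DNA encodes are not among them. Complexes III to V work as assemblies in which most subunits are needed together.

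In Balb/c dendrites, 29 of the 53 genes were lower and 5 were higher than in C57BL/6 dendrites, while 19 did not pass the test (limma, Benjamini-Hochberg over all 18193 genes at 0.05). Of all genes, 11.4% were lower and 21.1% were higher. The share of genes called lower was thus 54.7% among members, and the share called higher 9.43%. These calls did not allow for the number format of the deposited columns, which was long decimals for the 5 Balb/c and 4 C57BL/6 arrays and short ones for the other 10 C57BL/6 arrays. With the format as a block, which rests the comparison on those 9 arrays, 12 members were lower, against 1.28% of all genes, and 0 were higher, against 0.649%. The 12 were Cycs, Cyc1, Uqcrc2, Cox5a, Cox6b1, Cox7a2l, Atp5a1, Atp5h, Atp5j, Atp5md, Atp5pb and Atpif1, and the strain calls of the other members did not pass with the block. The median gene was itself 0.216 higher in Balb/c, and every strain difference below is given relative to it. On that scale the median member was at −1.40, against 0 for all genes. Calls, standard errors and adjusted p are those of the difference before this subtraction, tested against 0. For Cox4i2, given below as 0.94, the tested difference was 1.16, and for Sdhaf3, given as −0.73, it was −0.51. Members were often among the brighter genes of the array: 21 of them were in the 10% of genes with the highest mean over the 19 arrays, and 14 of these 21 were lower in Balb/c, against 28.1% of all such genes. The complexes differed in their counts. Complex V had 14 of 18 genes lower and 0 higher, complex III with cytochrome c 6 of 10 lower and 1 higher, complex IV 7 of 17 lower and 4 higher, and complex II 2 of 8 lower and 0 higher. Differences between these counts were not tested.

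**Figure D1:**
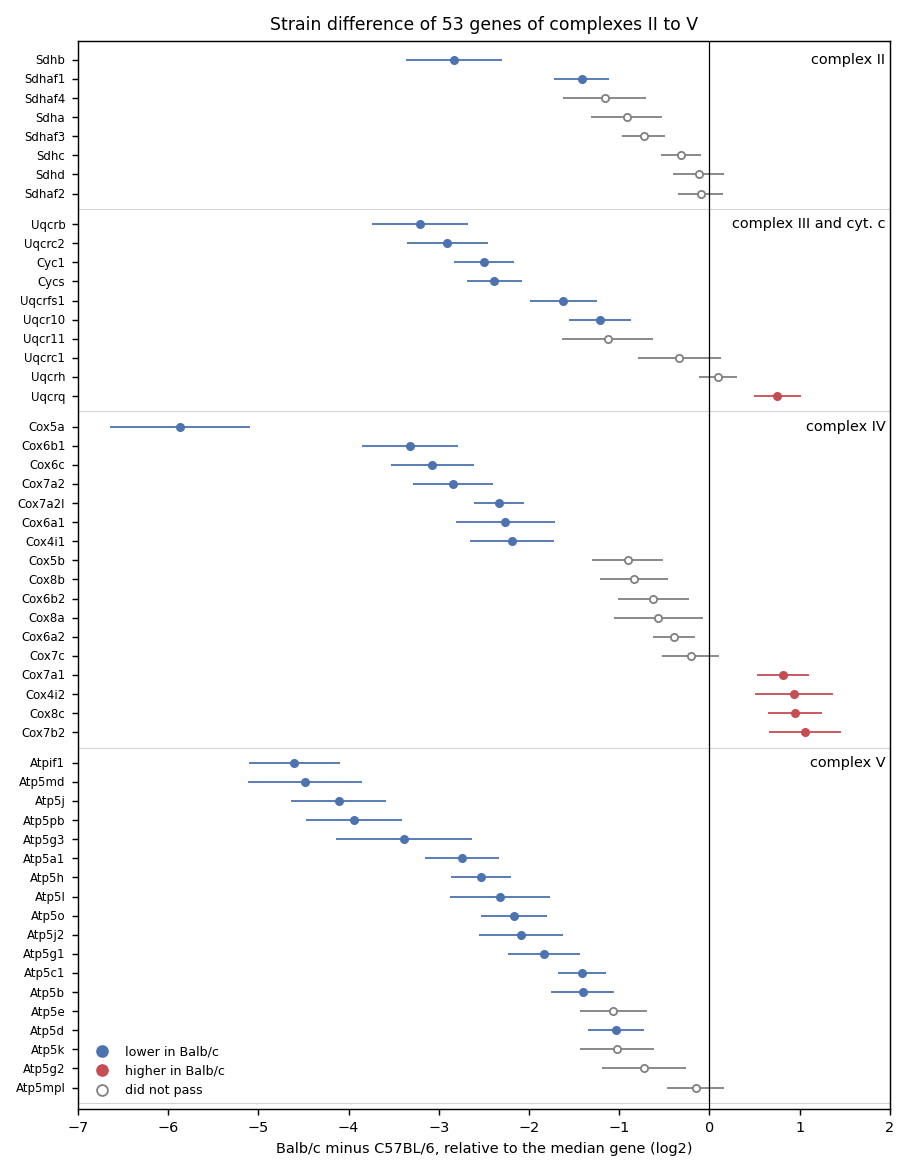
Strain difference of each of the 53 genes, by complex. The horizontal axis is the mean of 5 Balb/c arrays minus the mean of 14 C57BL/6 arrays, relative to the median gene (log2), and bars are the standard error of the fit. Filled blue points are lower and filled red points higher in Balb/c at an adjusted p under 0.05, open points did not pass. Cox5a lies farthest to the left at −5.87 and Cox7b2 farthest to the right at 1.06.

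Complex II had the fewest changed genes for its size. Sdhb, the iron-sulfur subunit, was at 9.16, 10.17, 13.66, 8.06 and 10.59 in the Balb/c arrays, against a lowest, median and highest value of 11.60, 12.91 and 13.72 in C57BL/6. It was lower in Balb/c by −2.83 ± 0.53 (adjusted p = 0.00127). In 4 of the 5 Balb/c arrays Sdhb lay below every C57BL/6 array, while Balb/c 200-1 lay close to the highest C57BL/6 value. Sdhaf1, an assembly factor that helps to place iron-sulfur clusters in Sdhb, stood at 7.07, 6.41, 8.08, 6.86 and 6.30 in Balb/c, against 7.22, 8.27 and 9.06 in C57BL/6 (−1.42 ± 0.30, adjusted p = 0.00507). Again 200-1 was the 1 Balb/c array inside the C57BL/6 range. Sdhaf3, which acts beside Sdhaf1, was at 6.67, 7.05, 6.29, 7.05 and 6.67 in Balb/c, against 5.98, 7.26 and 7.78 in C57BL/6, and did not pass (−0.73 ± 0.24, adjusted p = 0.103). All 5 Balb/c arrays lay inside the C57BL/6 range. The other 5 genes did not pass. Sdha, the catalytic flavoprotein, differed by −0.92 ± 0.39 (adjusted p = 0.176) and Sdhaf4, a factor that binds newly made Sdha, by −1.16 ± 0.46 (adjusted p = 0.119). The membrane anchors Sdhc and Sdhd differed by −0.32 and −0.12, and Sdhaf2, which helps Sdha to take up its flavin, by −0.10.

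In complex III, the core protein Uqcrc2 was at 6.91, 5.65, 9.97, 6.31 and 7.16 in Balb/c, against 8.50, 9.97 and 10.53 in C57BL/6 (−2.90 ± 0.44, adjusted p = 0.000299). Cyc1, the cytochrome c1 subunit that passes electrons to cytochrome c, was at 5.62, 5.79, 7.64, 6.76 and 6.44 in Balb/c, against 7.50, 8.81 and 9.73 in C57BL/6 (−2.49 ± 0.33, adjusted p = 0.000138). For both genes 4 Balb/c arrays lay below all C57BL/6 arrays and 200-1 lay among them. Cycs, cytochrome c itself, which also takes part in apoptosis once released, had values of 6.54, 6.29, 7.60, 6.23 and 6.87 in Balb/c, against 7.71, 8.93 and 9.74 in C57BL/6 (−2.38 ± 0.31, adjusted p = 0.000126). Here the strains did not overlap. Uqcrb, a small subunit, differed by −3.21 ± 0.53 (adjusted p = 0.000504), the Rieske iron-sulfur protein Uqcrfs1 by −1.62 ± 0.37 (adjusted p = 0.00719) and the small subunit Uqcr10 by −1.21 ± 0.34 (adjusted p = 0.029). The second core protein, Uqcrc1, did not pass at −0.33 ± 0.46, nor did the small subunits Uqcr11 (−1.13 ± 0.50) and Uqcrh (0.10 ± 0.21). Uqcrh was at 12.63 to 13.31 in Balb/c and at 11.85 to 13.34 in C57BL/6, so the Balb/c arrays all lay inside the C57BL/6 range. Uqcrq, another small subunit, was the 1 gene of this complex that was higher in Balb/c, with 7.89, 8.13, 7.42, 7.16 and 7.74, against 6.04, 6.79 and 7.48 in C57BL/6 (0.75 ± 0.26, adjusted p = 0.00775). With the gene value taken from its brightest probe set, Uqcrq was at −0.58 and did not pass.

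In complex IV the same strain contrast ran in both directions. Cox5a, a subunit on the matrix side of the enzyme, had the largest difference of all members. It was at 3.23, 5.45, 10.14, 3.54 and 8.13 in Balb/c, against 9.58, 12.11 and 13.12 in C57BL/6 (−5.87 ± 0.78, adjusted p = 9.85e-05). The Balb/c arrays spread widely for this gene (SD 2.98, against 1.03 in C57BL/6), and 200-1 was the 1 array to reach the C57BL/6 range. Cox7a2l, an assembly factor that joins complexes III and IV into supercomplexes, was at 5.79, 6.17, 7.28, 5.81 and 5.99 in Balb/c, against 7.58, 8.45 and 9.13 in C57BL/6 (−2.33 ± 0.28, adjusted p = 7.61e-05). All 5 Balb/c arrays lay below all 14 C57BL/6 arrays. Cox6c, a small membrane subunit, was at 8.47, 8.34, 9.22, 6.97 and 9.46 in Balb/c, against 9.01, 11.68 and 12.28 in C57BL/6 (−3.07 ± 0.46, adjusted p = 0.000265). Of its Balb/c arrays 200-1 and 400-2 lay within the C57BL/6 range.

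Several subunits of complex IV come in a widely expressed form and in a form made mainly in particular tissues, such as heart and skeletal muscle (Cox6a2, Cox7a1, Cox8b), lung (Cox4i2) or testis (Cox6b2, Cox7b2, Cox8c). Of the 7 tissue-restricted forms 4 were higher in Balb/c and 0 lower, against 21.1% higher among all genes. Of the 5 widely expressed partners 4 were lower and 0 higher, against 11.4% lower among all genes. The mean level in C57BL/6 was 7.23 for the restricted forms and 11.23 for the partners. Over the probe sets of all members, 62 had a mean of at least 8, of which 35 were lower and 1 higher. Of the 43 with a mean below 8, 13 were lower and 10 higher. The part of signal level in these calls was not tested. The partner of Cox7b2 is not analysed here. Cox4i1 was at 8.39, 5.83, 10.16, 6.61 and 8.11 in Balb/c, against 8.78, 9.71 and 11.05 in C57BL/6 (−2.19 ± 0.47, adjusted p = 0.0035). Its lung form, Cox4i2, was at 6.65, 8.73, 8.38, 10.05 and 7.36 in Balb/c, against 5.48, 6.97 and 8.07 in C57BL/6 (0.94 ± 0.43, adjusted p = 0.0423). The 2 Balb/c arrays with the lowest Cox4i1, 100-2 and 400-1, had the highest Cox4i2. Cox7a2 was at 8.57, 7.29, 9.97, 7.86 and 8.43 in Balb/c, against 9.54, 11.24 and 12.36 in C57BL/6 (−2.84 ± 0.44, adjusted p = 0.000341). Its muscle form, Cox7a1, was at 8.06, 6.47, 6.07, 7.18 and 6.58 in Balb/c, against 4.99, 5.84 and 6.60 in C57BL/6 (0.82 ± 0.29, adjusted p = 0.0105). For this form 2 of the 5 Balb/c arrays lay above the C57BL/6 range.

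The testis form Cox8c was at 8.68, 8.76, 8.81, 8.38 and 9.02 in Balb/c, against 6.74, 7.39 and 8.93 in C57BL/6 (0.95 ± 0.30, adjusted p = 0.00573), and the testis form Cox7b2 was at 8.78, 6.47, 8.52, 8.29 and 9.25, against 6.00, 6.77 and 8.83 (1.06 ± 0.40, adjusted p = 0.0177). In both genes the strains overlapped, with 1 Balb/c array above the C57BL/6 range. The widely expressed Cox8a was at 8.88, 11.41, 12.38, 10.64 and 10.87 in Balb/c, against 9.38, 11.35 and 12.73 in C57BL/6, and did not pass (−0.57 ± 0.49, adjusted p = 0.608). The muscle form Cox8b did not pass either, at 5.79 to 6.76 in Balb/c and 5.17 to 8.07 in C57BL/6 (−0.84 ± 0.38, adjusted p = 0.211). Cox6a1 was at 10.56, 6.83, 12.16, 8.07 and 10.90 in Balb/c, against 10.83, 11.78 and 12.74 in C57BL/6 (−2.26 ± 0.55, adjusted p = 0.00769), and its muscle form Cox6a2 differed by −0.40 ± 0.23 (adjusted p = 0.577). Cox6b1 was at 9.40, 7.01, 11.99, 7.15 and 10.84 in Balb/c, against 11.24, 12.44 and 13.04 in C57BL/6 (−3.31 ± 0.53, adjusted p = 0.000385), and its testis form Cox6b2 differed by −0.62 ± 0.40 (adjusted p = 0.448). Thus 100-2 and 400-1 were the lowest Balb/c arrays for Cox6a1 and Cox6b1, as for Cox4i1. Cox5b (−0.91 ± 0.39) and Cox7c (−0.21 ± 0.32), 2 further subunits, did not pass.

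The calls of 3 higher forms turned on single arrays. Cox7a1 lost its call without Balb/c 100-1 (adjusted p = 0.0528), Cox7b2 in 2 of 19 omissions (at most 0.0708, without Balb/c 400-2) and Cox4i2 in 12 of 19 (at most 0.217, without Balb/c 400-1), while Cox8c stayed at an adjusted p of at most 0.0185. With the number format as a block none of the 4 passed (adjusted p at least 0.0968, in Cox7a1). Receptor genes of sensory neurons (symbols beginning with Olfr or Vmn) are a list of genes not known for a role in hippocampal dendrites. These receptor genes were also higher in 31 of 71 cases and lower in 0, against 21.1% and 11.4% of all genes. Their mean level was 6.61 to 7.07 over the Balb/c arrays and 5.88 to 6.74 over the C57BL/6 arrays. Their part in the levels of the restricted forms was not tested.

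**Figure D2:**
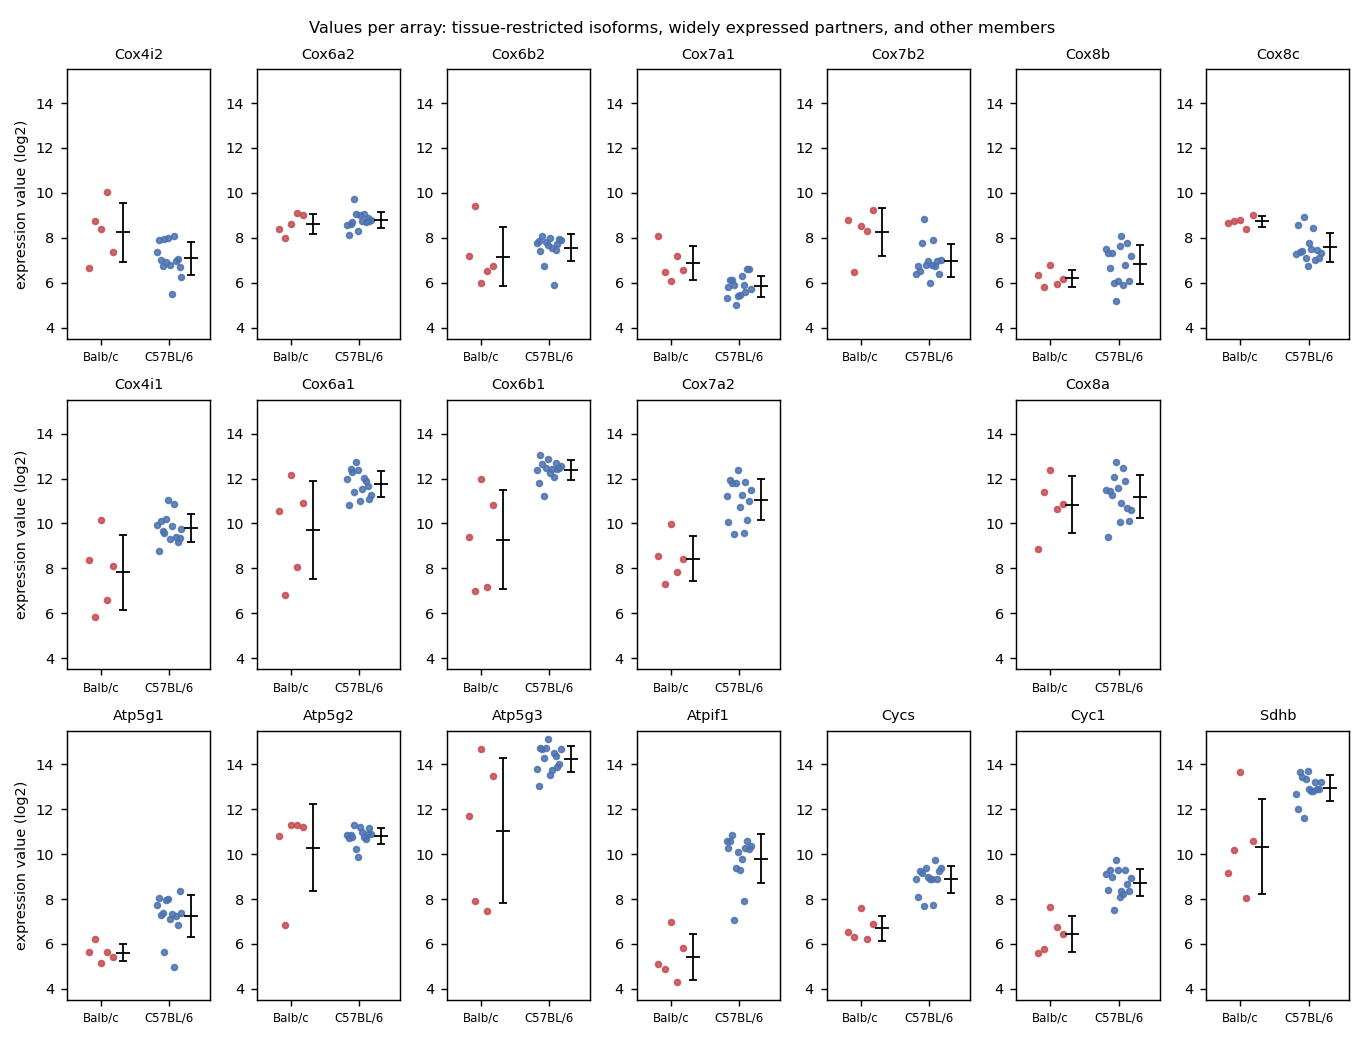
Value of each array (log2, vertical axis, 1 scale for all panels) in Balb/c (red, 5 arrays) and C57BL/6 (blue, 14 arrays), with the mean and SD in black. The top row holds the tissue-restricted forms of complex IV, the middle row the widely expressed partner of the form above it where measured, and the bottom row the 3 c-subunit genes, Atpif1, Cycs, Cyc1 and Sdhb. Balb/c arrays spread more widely than C57BL/6 arrays in Atp5g3, Cox6a1 and Cox6b1, and 1 Balb/c array lies far below the others in Atp5g2.

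Complex V consists of the catalytic F1 head, a peripheral stalk that holds it in place, a membrane ring of c subunits that turns as protons pass, and small membrane proteins. All 4 stalk genes were lower in Balb/c, as were 4 of the 5 F1 genes, 2 of the 3 c-subunit genes and 3 of the 5 small membrane proteins. Among stalk genes, Atp5j (coupling factor 6) was at 4.44, 5.40, 8.73, 4.30 and 6.82 in Balb/c, against 7.93, 9.998 and 10.86 in C57BL/6 (−4.11 ± 0.53, adjusted p = 8.36e-05). Atp5pb (subunit b) was at 5.29, 5.85, 6.88, 4.77 and 5.60 in Balb/c, against 6.10, 9.82 and 10.55 in C57BL/6 (−3.94 ± 0.53, adjusted p = 0.000129). In both, 200-1 was the Balb/c array that reached the C57BL/6 range. Atp5h (subunit d) did not overlap between the strains, at 6.90 to 8.47 in Balb/c and 8.52 to 10.89 in C57BL/6 (−2.54 ± 0.33, adjusted p = 0.000129), and Atp5o, which links the stalk to the head, differed by −2.17 ± 0.37 (adjusted p = 0.000738).

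In the F1 head, the alpha subunit Atp5a1 differed by −2.74 ± 0.41 (adjusted p = 0.000273), the beta subunit Atp5b, which carries the catalytic sites, by −1.40 ± 0.35 (adjusted p = 0.0129), the gamma subunit Atp5c1 by −1.41 ± 0.27 (adjusted p = 0.00264) and the delta subunit Atp5d by −1.03 ± 0.31 (adjusted p = 0.0458). The epsilon subunit Atp5e did not pass (−1.06 ± 0.37, adjusted p = 0.0828). Among the small membrane proteins, Atp5md was at −4.48 ± 0.63 (adjusted p = 0.000156), Atp5l at −2.32 ± 0.56 (adjusted p = 0.00691) and Atp5j2 at −2.09 ± 0.47 (adjusted p = 0.00509), while Atp5k (−1.03 ± 0.41) and Atp5mpl (−0.15 ± 0.32) did not pass. In Atp5l the highest Balb/c array was 100-1, not 200-1, with 11.13, and the other 4 Balb/c arrays had 7.27 to 8.13.

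The c ring is encoded by 3 genes whose mature proteins are the same and whose import sequences differ. Atp5g3 was at 11.71, 7.91, 14.67, 7.47 and 13.47 in Balb/c, against 13.04, 14.32 and 15.14 in C57BL/6 (−3.39 ± 0.75, adjusted p = 0.00364). Atp5g1 was at 5.62, 6.24, 5.17, 5.64 and 5.42 in Balb/c, against 4.98, 7.35 and 8.35 in C57BL/6 (−1.84 ± 0.40, adjusted p = 0.00472). Atp5g2 was at 10.80, 6.85, 11.27, 11.32 and 11.21 in Balb/c, against 9.89, 10.85 and 11.29 in C57BL/6, and did not pass (−0.72 ± 0.47, adjusted p = 0.418). The 3 genes thus varied in different ways: in Atp5g3 the Balb/c arrays had an SD of 3.24, in Atp5g1 one of 0.40 while 2 C57BL/6 arrays (200-1 and 400-1) were as low as they were, and in Atp5g2 a single Balb/c array stood apart. Whether probes are shared among these 3 genes was not tested.

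Atpif1, the inhibitor that stops the synthase from running backwards and using up ATP, had the smallest adjusted p of the 53 genes. It was at 5.09, 4.90, 6.97, 4.30 and 5.81 in Balb/c, against 7.05, 10.25 and 10.83 in C57BL/6 (−4.60 ± 0.51, adjusted p = 3.82e-05). The strains did not overlap, though C57BL/6 200-1 at 7.05 lay close to Balb/c 200-1. This result depended on 1 of its 3 probe sets, as described below.

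Counted over all members, 4 genes (Cycs, Cox7a2l, Atpif1 and Atp5h) had every Balb/c array below every C57BL/6 array, against 0.418% of all genes, and 0 had every Balb/c array above, against 0.797%. For 15 of the 29 lower genes, 4 of the 5 Balb/c arrays lay below the C57BL/6 range, and Balb/c 200-1 was the highest of the 5 in 25 of the 29. Over all 53 genes, the lowest of the 19 arrays was Balb/c 100-2 for 15 genes, 400-1 for 12 and 100-1 for 10. The counts over the 29 lower genes use the values that gave the calls. Neither these counts nor those of the lowest array were made over all genes, so they cannot show a trait particular to members. Relative to the C57BL/6 mean of each gene, the median member was at −1.39, −1.93, −0.10, −1.60 and −0.85 in the 5 Balb/c arrays on the scale as deposited. In the C57BL/6 arrays it ran between −0.74, in 200-1, and 0.52. The Balb/c SD was the larger in 36 of 53 members (67.9%) and in 58.7% of all genes. With 1 variance per strain in place of a shared one, 27 members were lower and 4 higher. Over all genes 4312 were then called and 1587 of them were lower, against 5910 and 2073 with the shared variance.

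**Figure D3:**
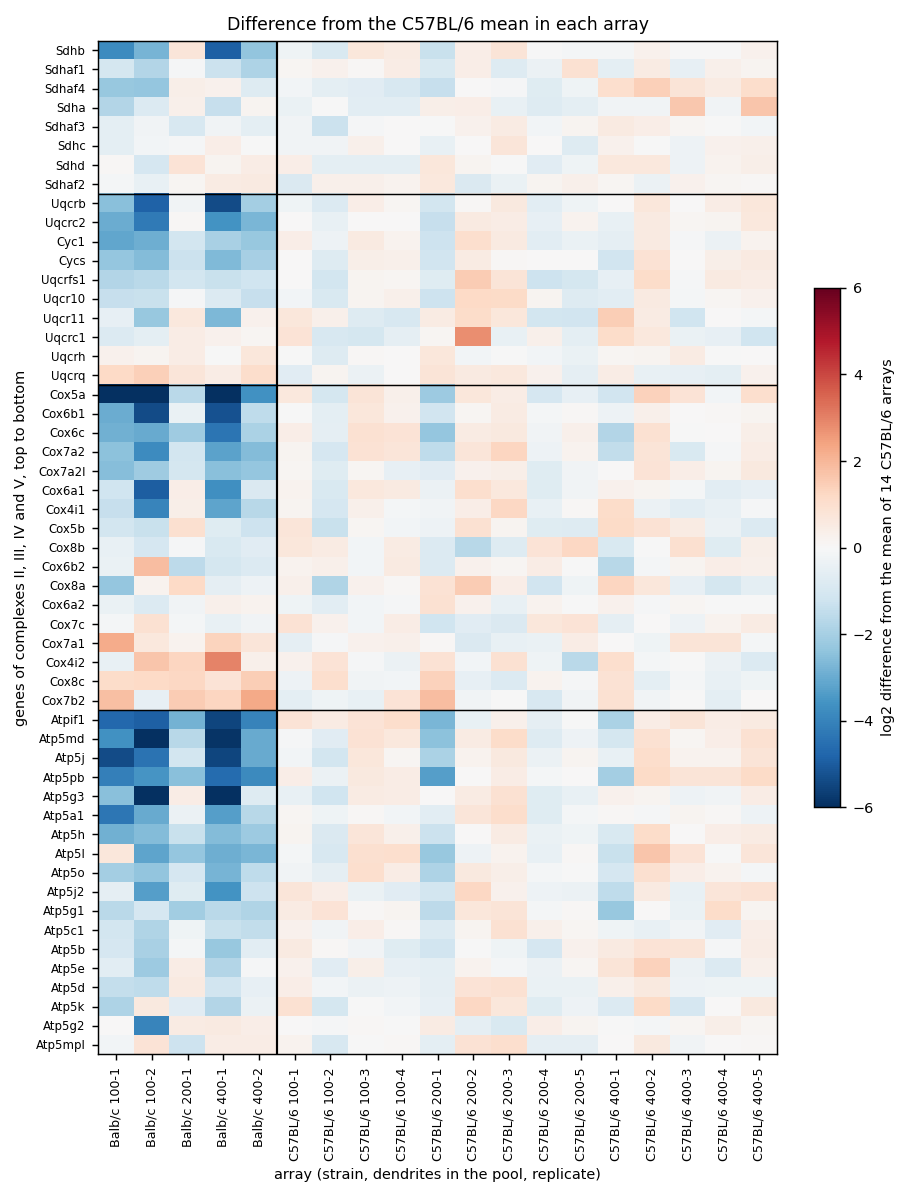
Value of each of the 53 genes (rows, by complex, ordered within a complex by strain difference) in each of the 19 arrays (columns, Balb/c left of the line) minus the mean of the gene over the 14 C57BL/6 arrays. Colour runs from 6 log2 units below that mean (blue) to 6 above (red). Balb/c 100-1, 100-2 and 400-1 are blue over many genes, 200-1 is close to the C57BL/6 arrays, and C57BL/6 200-1 is the bluest of the 14.

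Some technical measures moved with these results, and their part in them was not tested. Balb/c 200-1, C57BL/6 200-1 and C57BL/6 400-1 lay between the strains over all genes. They were chosen for that position, so leaving them out was bound to widen the strain difference over all genes. Without these 3 arrays 32 members were lower and 5 higher, with a median of −1.77. Over all genes the shares were also larger, at 15.3% lower and 28.2% higher. With Balb/c 100-2 and 400-1 left out, which held the lowest value of the most members, 18 were lower and 3 higher. The median was then −1.09, and 5.21% and 6.13% of all genes were lower and higher. Over its probe sets, Balb/c 100-2 held 1569 distinct values and 400-1 held 2052, against 2603 to 5556 in the other arrays. Genes could thus share a value: in Balb/c 400-1, Atp5e, Atp5j and Atpif1 were all at 4.29948. With the number format as a block the median member was at −1.05. Within the 9 arrays of the long format alone 0% of all genes passed in either direction. At an unadjusted p under 0.05, 23 of the 53 members were lower there, and 2367 of all 18193 genes were lower or higher. The Actb control signal near the 3′ end minus that near the 5′ end was −0.69 to 2.27 in Balb/c and 1.17 to 5.56 in C57BL/6. The C57BL/6 arrays 200-1 (1.17) and 400-1 (1.65) had the lowest values of their strain. For the Gapdh control it was 1.48 to 4.72 in Balb/c and 2.39 to 5.00 in C57BL/6.

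The probe sets of a gene did not always go the same way. Of the 105, 48 were lower in Balb/c and 11 higher, against 11.6% and 21.3% of the 45037 probe sets on the array. With the number format as a block 21 were lower, against 1.32% of all probe sets, and 1 was higher (of Atp5j2), against 0.542%. All probe sets were lower in 10 of the 33 genes with more than 1, and in 9 some were lower and none higher. In 3 genes (Sdha, Atp5c1 and Atp5j2) probe sets were called in opposite directions, 3 had higher ones only (Uqcrq, Cox8a and Cox8c), and in 8 no probe set passed. Cox5a was lower by all 3 of its probe sets, at −6.20, −5.81 and −4.38 relative to the median probe set, and Cox7a2l by all 3, at −4.01, −2.29 and −2.06. The Cox7a2l probe sets are all of the kinds marked a or x, which can match several transcripts, and the brightest of them did not pass with the number format as a block (adjusted p = 0.069).

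Other members turned on the choice. Atpif1 was at −5.03 by 1 probe set (adjusted p = 4.28e-05), but the other 2 were at 0.16 and −0.66, and neither passed. With the gene value from the brightest probe set, Atpif1 was not lower (0.23, adjusted p = 0.154). Atp5a1 was at −3.80 and −3.27 by 2 probe sets and at −0.25 by the third, which had a mean of 10.95 in both strains. Atp5h was at −4.66 and −0.48 by its 2 probe sets, and Cycs was lower by 3 of its 4 probe sets (−3.97, −3.28 and −1.04), with the other at −0.08. Atp5j2 was lower by 2 probe sets (−4.20 and −3.52) and higher by 1 (1.93), and Atp5c1 was lower by 1 (−3.59) and higher by the other (0.70). Sdha, which did not pass as a gene, was lower by 1 of its 4 probe sets (−2.04) and higher by another (0.61). Sdhaf3 was lower by 1 probe set (−2.08), with its other probe set at 0.55. The 2 probe sets of Uqcrq that were higher stood at 1.502 and 1.61 and the other 2 at 0.57 and −0.65. Sdhb, Cyc1, Atp5j, Atp5md, Atp5g3 and Cox4i1 had 1 probe set each. Suffixes s, x and a mark probes that can match several transcripts, and without those probe sets 17 of the 44 members left were lower and 6 higher, against 9.69% and 22% of the 16591 genes left. Of the 29 lower genes, 6 then had no probe set (Uqcrc2, Cox4i1, Cox6a1, Cox7a2l, Atp5o and Atp5d) and 6 were tested and not lower (Uqcr10, Atpif1, Atp5h, Atp5g1, Atp5j2 and Atp5c1, of which Atp5c1 was higher at 0.69, adjusted p = 0.0436).

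**Figure D4:**
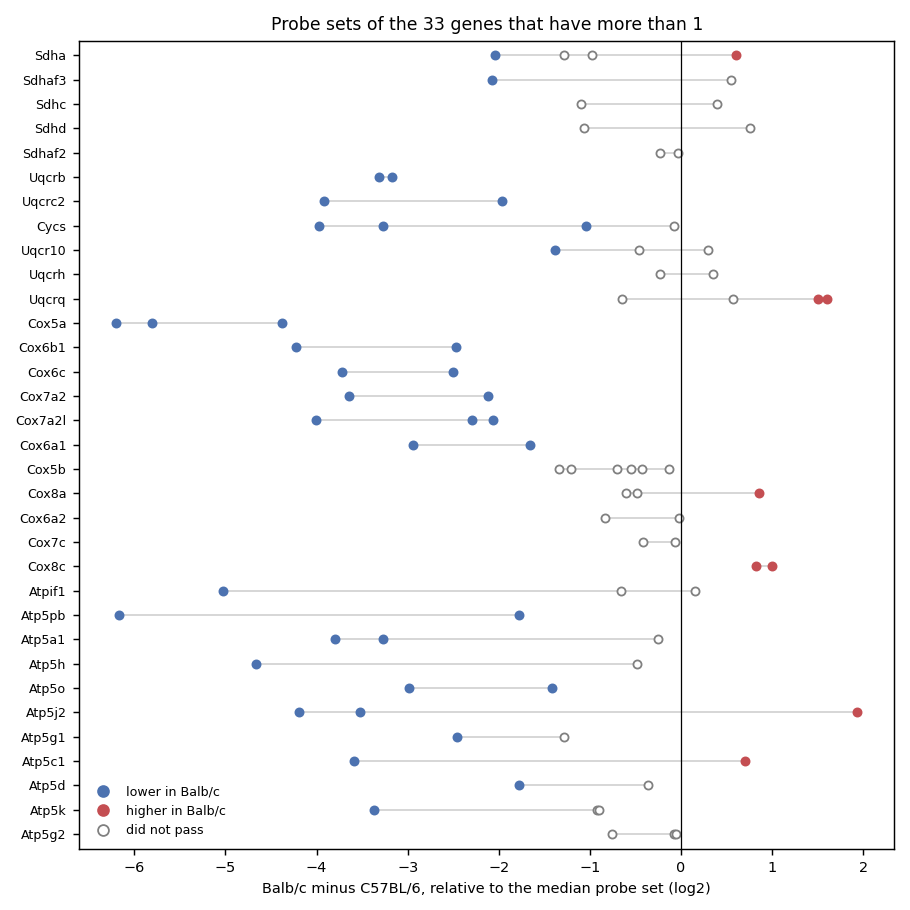
Strain difference of each probe set (Balb/c minus C57BL/6, relative to the median probe set, log2) for the 33 genes with more than 1, by complex from top to bottom. Filled blue points are lower and filled red points higher in Balb/c at an adjusted p under 0.05 over 45037 probe sets, open points did not pass, and grey lines join the probe sets of a gene. Cox5a and Cox7a2l lie wholly to the left, while Atp5j2 runs from −4.20 to 1.93.

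Pools held 100, 200 or 400 dendrites, so a second question was whether members followed pool size. No member passed for the slope per doubling of the pool with strain in the model, in either direction, nor for 400 against 100 dendrites within C57BL/6, nor for a difference between the strains in slope, and 0% of all genes passed in each of these fits (limma, adjusted p under 0.05). At an unadjusted p under 0.05 there were 850 genes and 3 members for the slope, 1053 genes and 2 members for 400 against 100, and 690 genes and 1 member for the difference in slope. The median slope was 0.12 per doubling over members and −0.01 over all genes, and 36 of 53 members had a positive slope.

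The 3 members with the smallest p among positive slopes all belonged to complex II. Sdhaf4 averaged 5.87, 8.54 and 7.92 in Balb/c pools of 100, 200 and 400 dendrites (2, 1 and 2 arrays). In C57BL/6 it averaged 7.58 ± 0.34, 7.69 ± 0.59 and 9.12 ± 0.35 at these sizes (SD, n = 4, 5 and 5). Its slope was 0.87 ± 0.17 per doubling (adjusted p = 0.28), and 400 minus 100 dendrites in C57BL/6 was 1.54 ± 0.32 (adjusted p = 0.235). All 5 C57BL/6 pools of 400 lay above all 4 pools of 100. Sdhaf4 was chosen by its slope p from these same values, so this separation is no separate support. How many of all genes separate in this way was not counted. Sdhd had a slope of 0.34 ± 0.14 and Sdha one of 0.44 ± 0.19 (adjusted p = 0.959 for both). Among negative slopes, Cox6b2 was at −0.39 ± 0.20, Cox7c at −0.23 ± 0.17 and Atp5g1 at −0.29 ± 0.21 (adjusted p = 0.959 for each). The member with a difference in slope was Atp5g2, at 1.17 ± 0.47 for Balb/c minus C57BL/6 (unadjusted p = 0.0209, adjusted p = 0.9999), and its lowest value came from 1 Balb/c pool of 100 dendrites. Between the strains within pools of 100, 22 members were lower and 1 higher, against 5.65% and 5.82% of all genes, and within pools of 400, 25 were lower and 1 higher, against 7.34% and 9.66%.

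**Figure D5:**
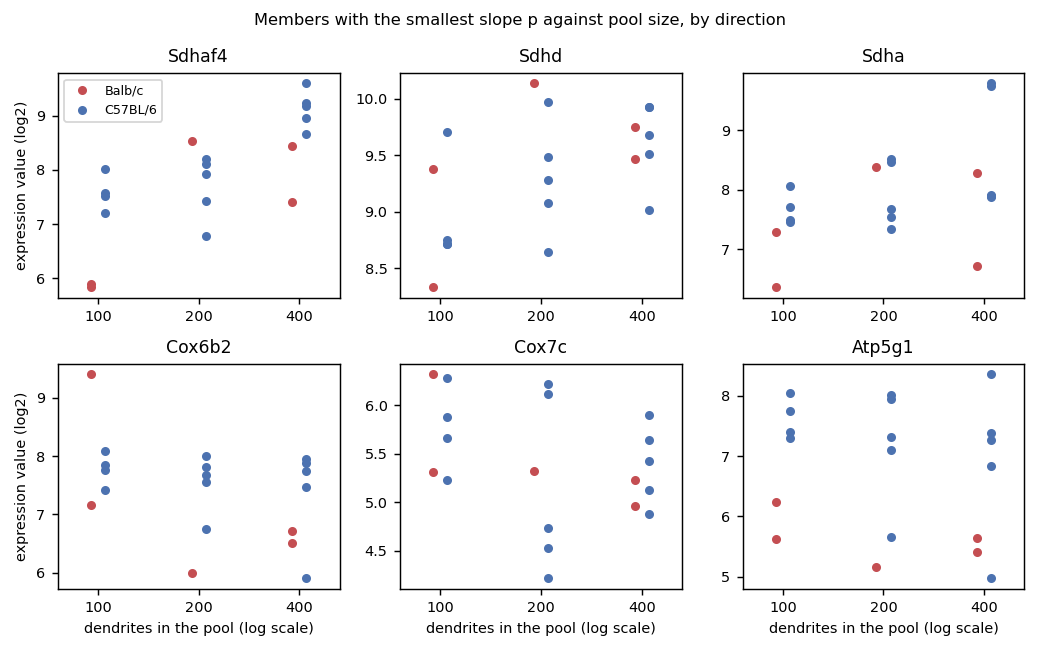
Values (log2, vertical axes differ between panels) of the 3 members with the smallest slope p in each direction against the number of dendrites in the pool (log axis), in Balb/c (red, 5 arrays) and C57BL/6 (blue, 14 arrays). In Sdhaf4, chosen by its slope p from these same values, the C57BL/6 pools of 400 lie above those of 100. No slope passed after adjustment.

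Related genes were counted for comparison. Of 44 genes of complex I, which feeds electrons from NADH into the same chain, 27 were lower and 2 higher in Balb/c, with a median of −1.75. Of 12 measured enzymes of the tricarboxylic acid cycle, which supplies succinate and NADH, 5 were lower and 2 higher (median −0.61). Of 28 assembly factors of complexes III to V, 9 were lower and 2 higher (median −0.55). Of 11 transcription factors and coactivators of these genes, 2 were lower and 3 higher (median −0.30). Each list is read against the 11.4% lower and 21.1% higher of all genes.

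Within C57BL/6 the members varied together to differing degrees. Over the 14 arrays, each centred on its median gene, the median Pearson correlation was 0.30 over the 1378 pairs of members and −0.001 over all pairs of genes, and all values of an array share 1 amplified pool. It was 0.49 for complex V, 0.26 for complex III with cytochrome c, 0.10 for complex IV and 0.05 for complex II. Without arrays 200-1 and 400-1 these were 0.37, 0.54, 0.07 and 0.08. Sdhb and Cox6b1 ran closest together (0.96). The lowest median correlations with the other members were those of Cox8c (−0.56), Sdhaf2 (−0.33) and Atp5g2 (−0.30), and the 7 tissue-restricted forms ran between −0.56 and 0.15 (Cox6b2).

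The pools were labelled as pyramidal neurons, and marker lists were counted as a check, to be read against the 11.4% lower and 21.1% higher of all genes. Of 7 genes of excitatory neurons, 2 were lower in Balb/c (Neurod6 and Map2) and 1 higher (Camk2a), with a mean level of 7.40 to 9.04 over the Balb/c arrays and 7.88 to 8.44 over the C57BL/6 arrays. Nrgn, a calmodulin-binding protein of dendritic spines, was at a mean of 13.32 in Balb/c (SD 0.21) and 13.03 in C57BL/6 (SD 0.23), and Slc17a7, the vesicular glutamate transporter of these neurons, at 6.74 in Balb/c (SD 0.70) and 6.36 in C57BL/6 (SD 0.52). Interneuron genes were also at high levels: Calb2 averaged 13.64 in Balb/c and 13.86 in C57BL/6, and Gad1 8.42 and 10.60. The rest of that list averaged 6.74 to 7.51 in Balb/c and 6.61 to 8.12 in C57BL/6. Gad1 and Sst were its lower genes. Of 5 nuclear and somatic RNAs, 3 were lower (Malat1, Meg3 and Snhg11; mean level 7.71 to 9.67 in Balb/c and 8.84 to 10.29 in C57BL/6). Of 7 microglial genes 3 were higher and 0 lower (6.82 to 7.48 in Balb/c, 5.84 to 6.99 in C57BL/6). Of 7 astrocyte genes 2 were lower (5.94 to 7.83 and 6.39 to 7.86), of 6 interneuron genes 2 were lower (8.10 to 8.77 and 8.50 to 10.17), and of 8 oligodendrocyte genes 2 were higher (6.17 to 6.76 and 6.16 to 6.66, Balb/c before C57BL/6 in each). Their part in the results on members was not tested.

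Many genes of the respiratory chain carry binding sites for nuclear respiratory factor 1 (NRF1), ETS factors such as GABP, and YY1 near their start sites. Promoters of 41 of the 53 members were found in the RefSeq table of assembly GRCm38.p6, each running from upstream of a start site to just past it. The NRF1 core GCATGCGC was found in 8 of these 41 genes (19.5%), the ETS core CCGGAAG in 16 (39.0%) and the YY1 core AAGATGG in 4 (9.76%), reading both strands. Among the 14452 array genes with a promoter in the table the shares were 4.68%, 14.98% and 7.54%, and among all 32851 promoters 2.71%, 8.86% and 6.34%. Members that were lower in Balb/c held them in 4, 8 and 3 of 23 genes, members that did not pass in 4, 8 and 1 of 16, and members that were higher in 0 of 2 for each core. The cores were thus found in members that were lower and in members that did not pass. These are matches of letters, not measured sites. Windows of 6 genes, from position −120 to position −1 relative to the start site, are shown 5′ to 3′ on the gene's strand because they set side by side members that were lower (Cycs, Sdhb, Atp5j and Cox6b1) and members that did not pass (Atp5g2 and Sdhd), with the cores in capitals.
Cycs (chr6:50566570-50566689, minus strand): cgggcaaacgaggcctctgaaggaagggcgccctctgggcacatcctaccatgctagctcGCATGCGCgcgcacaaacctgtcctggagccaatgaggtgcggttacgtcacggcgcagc
Sdhb (chr4:140961151-140961270, plus strand): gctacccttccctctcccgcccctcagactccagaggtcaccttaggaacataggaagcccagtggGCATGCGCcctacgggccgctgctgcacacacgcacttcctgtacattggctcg
Atp5g2 (chr15:102671048-102671167, minus strand): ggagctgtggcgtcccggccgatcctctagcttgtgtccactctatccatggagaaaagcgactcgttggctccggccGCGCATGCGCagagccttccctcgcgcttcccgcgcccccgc
Atp5j (chr16:84834977-84835096, minus strand): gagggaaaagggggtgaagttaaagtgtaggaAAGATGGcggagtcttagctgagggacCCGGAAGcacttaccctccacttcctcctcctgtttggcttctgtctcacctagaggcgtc
Cox6b1 (chr7:30626115-30626234, minus strand): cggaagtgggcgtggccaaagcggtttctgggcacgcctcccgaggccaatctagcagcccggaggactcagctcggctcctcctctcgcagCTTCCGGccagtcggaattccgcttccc
Sdhd (chr9:50603850-50603969, minus strand): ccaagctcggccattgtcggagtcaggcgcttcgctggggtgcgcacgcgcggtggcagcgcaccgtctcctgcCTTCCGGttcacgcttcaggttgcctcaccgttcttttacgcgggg
Cycs and Sdhb carry the NRF1 core, and Atp5g2 carries it on both strands with the copies overlapping. The Sdhb promoter also holds an ETS core just past the start site, outside the window shown. The Atp5j promoter shown carries a YY1 and an ETS core (a second promoter of this gene in the table holds none of the 3 cores). Cox6b1 and Sdhd carry the ETS core on the opposite strand.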

How the data were processed

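RNA from 19 pools of dendrites (5 Balb/c, 14 C57BL/6) was measured on Affymetrix mouse expression arrays. The authors made the deposited log2 values per probe set with RMA, given as 2.0 in the submitters' notes, and summarised a set by the upper decile of its probes. They ran from 2.12 to 16.0. The median centring and range scaling named in the methods were not in the values, and a genome build for the probes was not stated. The array held 45101 probe sets, of which 64 were controls, 932 had several symbols and 9160 none; the 34945 with 1 symbol gave 18193 genes, each the median of its probe sets, with no filter on dim genes. Of these probe sets, 34741 (99.4%) matched RefSeq by gene identifier.

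Balb/c minus C57BL/6 was fitted in R 4.3.3 using lmFit and eBayes of limma 3.58.1 on the values as deposited, without covariates, and adjusted by Benjamini-Hochberg over all genes, or all probe sets that were not controls, at 0.05. Scripts were tested on simulated data. The highest correlation between arrays was 0.945, so none was a copy. Pools are called biological replicates, but separate cultures or animals are not stated, so p-values reflect only how pools vary, and the number of arrays limits the precision. Members and lists were chosen with earlier results of these data known. Chosen for closer description were the 3 genes of each complex with the smallest p, all higher genes, and complex IV isoforms and partners. Also chosen were the c-subunit genes, Atpif1, Cycs and Cyc1, and the 3 smallest slope p in each direction. Most of these are given with full values, and some only with a range, a mean or a difference. Alternatives changed normalization, probe set choice, variance model, blocks, pools and arrays. Promoters were read with Python 3.11.15 from RefSeq.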

Additional observations from a re-analysis of the deposited data

Results flagged for a closer look

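Of the 32 genes chosen for closer description, 3 had a Balb/c array far from the other 4. Most of the range of the 5 arrays then lay in the gap to its nearest neighbour (Dixon's test). Cox7a2l was at 7.28 in Balb/c 200-1, against 5.79 to 6.17 in the other 4. Cox7c, a small subunit of complex IV, was at 6.32 in Balb/c 100-2, against 4.96 to 5.32 in the other 4, and Atp5g2 was at 6.85 in the same array, against 10.80 to 11.32 in the other 4. Chance gives such a gap in about 1 of 20 groups, and the 14 C57BL/6 arrays are too many for this test.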

How the results depend on the processing

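The median member stayed below the median gene in every setting run. Changed one at a time, quantile normalization, range scaling, the brightest probe set, brighter genes only, the variance models, the methods' t-test and pool size as a covariate left 27 to 30 members lower and 4 or 5 higher. Over all genes these settings called 3395 to 6298, and 1587 to 2558 were lower, against 5910 and 2073 in the main fit. The fit on brighter genes tested 48 members. Quantile normalization and range scaling put the strain difference of the median gene at 0.095 and 0.076, against 0.216 as deposited. Without x, s and a probe sets 17 of 44 members were lower, with a median of −0.84; of the 29 lower genes 6 were not tested there and 6 lost the call. With the number format as a block 12 members were lower and 0 higher, and 21 probe sets were lower and 1 higher; within the long format 0 were lower and 0 higher. Pools of 100 and pools of 400 each gave 1 higher member. Sdhaf3 (adjusted p = 0.0211), Cox6b2 (0.0319) and Sdhaf4 (0.0429) passed when C57BL/6 100-2, Balb/c 100-2 and Balb/c 200-1 were left out, in that order. Sdhaf4 also passed with pool size as a covariate (0.040), in pools of 100 (0.0262) and without the 3 arrays between the strains (0.0277), and Sdhaf3 with the brightest probe set (−2.01, adjusted p = 0.00165). Leaving out 1 array in turn gave 26 to 32 lower members, 3 to 5 higher members (3 without Balb/c 100-1) and medians of −1.68 to −1.25. Over all genes these omissions called 4093 to 6694, and 1564 to 2344 were lower. Without Balb/c 100-2 and 400-1, chosen after seeing the data, 18 were lower and 3 higher. Atpif1 turned to 0.23 with the brightest probe set and to −0.26 without x, s and a probe sets (as deposited just above 0), and Uqcrq to −0.58 with the brightest probe set. The cause was not tested. With pool size and replicate number as a replicate block, 0 members were lower and 0 higher, with a median of −1.24. At an unadjusted p under 0.05, 26 members were lower in that fit, and 3331 of all 18193 genes were lower or higher. Deviations of arrays with the same number correlated between −0.19 and 0.07, and 0 of 5 Balb/c arrays correlated best with its own number. The numbers thus showed no pairing of the samples. The best matches reached only 0.14 to 0.29, so this check cannot exclude a pairing. No detection calls were used, so differences of dim genes can be bounded by background.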
